A study of Mus musculus with 19 samples.

Results

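The 9 genes described here encode proteins of blood coagulation and fibrinolysis: F3, F7, F10, Thbd, Proz, Plau, Plat, Plaur and Serpinb2. They were chosen by symbol, each matched a single gene among the 56941 in the deposited tables, and all 9 passed the filter on low counts that left 20501 genes for testing. Expression was measured by poly(A) RNA sequencing of pellets of lavage cells, that is, cells washed out of the lung airspaces, which the labels call primary alveolar macrophages. There were 4 groups of female mice aged 7 to 8 weeks: ICAM-1 null mice exposed to bioparticles (n = 5), exposed wild type C57Bl/6J mice (n = 5), naive ICAM-1 null mice (n = 5) and naive wild type C57Bl/6J mice (n = 4). Exposed mice took up, by oropharyngeal aspiration under isoflurane, 100 µL of a suspension (2.27 mg/mL) of S. aureus bioparticles, which carry pHrodo, a dye that brightens in acid compartments. Lavage, with buffered saline holding 2 mM EDTA, followed after 1 h. ICAM-1 is an adhesion molecule that leukocyte integrins bind. The sources used here do not give the background of the null line or any sham treatment of naive mice, so loss of ICAM-1 and other differences between the lines cannot be told apart, nor bioparticles and the procedure.

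Coagulation in tissue starts when factor VII binds tissue factor (F3) on a cell surface and the pair activates factor X (F10), which then converts prothrombin to thrombin. Thrombomodulin (Thbd) redirects thrombin toward activation of the anticoagulant protein C, and protein Z (Proz) is the cofactor of a plasma inhibitor of activated factor X. Fibrin is removed by plasmin, which urokinase (Plau) and tissue plasminogen activator (Plat) release from plasminogen. The urokinase receptor (Plaur) holds urokinase at the cell surface, and the inhibitor encoded by Serpinb2 blocks both activators. In the airspaces macrophages are a known source of tissue factor and of urokinase, and fibrin deposition accompanies lung inflammation.

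Total estimated counts were 56.99 to 66.3 M in exposed null, 42.6 to 61.0 M in exposed wild type, 59.8 to 78.8 M in naive null and 32.8 to 80.3 M in naive wild type libraries. Icam1 averaged 10.8 ± 1.59 TPM in exposed null and 899 ± 155 TPM in exposed wild type libraries (SD, n = 5 each), and 8.13 ± 2.63 TPM in naive null (n = 5) and 74.6 ± 10.7 TPM in naive wild type libraries (n = 4), with no overlap between genotypes. The summed level of 8 alveolar macrophage markers was 19929 to 25602 TPM in exposed null, 21145 to 24925 TPM in exposed wild type, 24008 to 27027 TPM in naive null and 20979 to 24428 TPM in naive wild type libraries. Most of this sum was Chil3 (group means of 14476 to 16822 TPM), and other members moved: Marco averaged 1963 TPM in exposed null, 589 TPM in exposed wild type, 1844 TPM in naive null and 478 TPM in naive wild type libraries, Car4 and Fabp4 were higher and Siglecf was lower in exposed than in naive libraries of each genotype, without overlap. The summed level of 12 epithelial markers was higher in exposed wild type libraries (1011 to 2996 TPM) than in exposed null (665 to 889 TPM), naive null (456 to 620.4 TPM) or naive wild type libraries (460.5 to 605 TPM), without overlap. Its largest member was Scgb1a1, a club cell secretory protein, with a mean of 1266 TPM in exposed wild type libraries, and the members did not move together. Epcam was lower in exposed wild type (46.8 to 62.6 TPM) than in exposed null libraries (92.2 to 125 TPM), without overlap. Both Epcam and Cdh1 were lower in exposed than in naive libraries of each genotype, without overlap. That fall is on the TPM scale, where the median of all genes also fell on exposure. In the test on counts (adjusted p under 0.05), 9 of the 12 markers were higher and 0 lower in wild type mice. In null mice 7 were higher and 1 lower. Of all genes tested, 20.1% were higher and 20.2% lower in wild type, and 21.4% and 23.4% in null mice. The summed level of 9 red cell and platelet markers reached 2403 TPM in exposed wild type libraries and at most 355 TPM in exposed null, 355 TPM in naive null and 414 TPM in naive wild type libraries. The neutrophil sum was 63.3 to 110.2 TPM in exposed null, 51.0 to 88.5 TPM in exposed wild type, 46.5 to 66.9 TPM in naive null and 20.3 to 39.9 TPM in naive wild type libraries, and the lymphocyte sum was 24.9 to 28.7, 30.7 to 40.9, 21.9 to 27.0 and 29.8 to 30.7 TPM in the same groups. The summed level of 8 monocyte and interstitial macrophage markers was 31.6 to 47.0 TPM in exposed null and 39.9 to 59.8 TPM in exposed wild type libraries. It was 25.4 to 37.7 TPM in naive null and 28.2 to 46.3 TPM in naive wild type libraries. The part of all these cells in the results below was not tested. In a pellet of mixed cells, fewer cells of a type and less RNA per cell cannot be told apart.

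By 1 h after bioparticles, 7 of the 9 genes rose, Thbd fell and F7 did not pass the test, in null and in wild type mice alike. Over all genes tested, 44.8% passed the threshold of an adjusted p under 0.05 in null mice (21.4% higher and 23.4% lower), and 40.2% passed it in wild type mice (20.1% higher and 20.2% lower). The median log2 fold change of the 9 genes was 1.72 in null and 1.64 in wild type mice, against 0.02 over all genes tested in each. Because the 9 genes were chosen with earlier results of these data known, their counts and medians do not test them as a set. This holds here and below. The exposure comparisons of the 2 genotypes share no mice. TPM, which scale for transcript length and for the total of a library, are given below as levels, and log2 fold changes come from the counts.

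**Figure D1:**
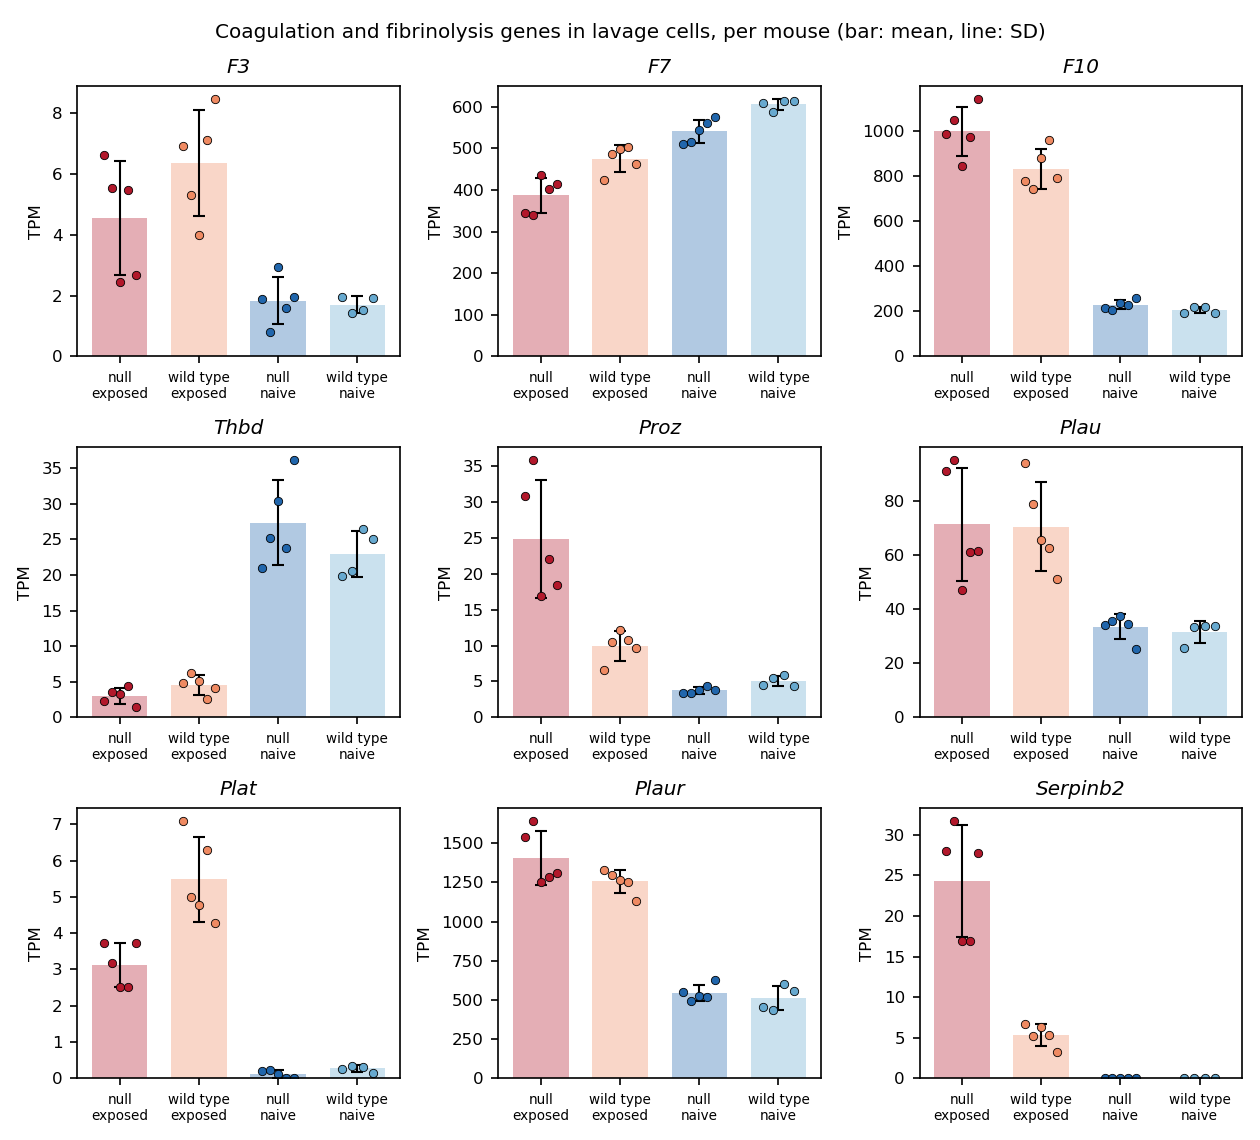
Level of each gene in TPM (linear axis from 0) in exposed null, exposed wild type, naive null and naive wild type libraries; points are mice, bars are means and lines are SDs (n = 5, 5, 5 and 4). Thbd is the gene whose exposed libraries sit furthest below the naive ones in proportion, Serpinb2 and Plat sit near 0 in naive libraries, and Serpinb2 and Proz separate exposed null from exposed wild type libraries.

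Tissue factor, the trigger of the cascade, was a low transcript that rose on exposure in both genotypes. F3 (ENSMUSG00000028128.14, chromosome 3, 121517186 to 121528697, GRCm39) stood at 6.61, 5.53, 2.44, 5.46 and 2.69 TPM in exposed null libraries, against 1.90, 0.798, 2.93, 1.58 and 1.97 TPM in naive null libraries. It stood at 6.92, 5.30, 3.99, 7.10 and 8.47 TPM in exposed wild type libraries, against 1.95, 1.43, 1.51 and 1.91 TPM in naive wild type libraries. Every exposed wild type library lay above every naive one, while exposed null libraries 3 and 5 lay below the highest naive null library. The log2 fold change was 1.62 in null mice (SE 0.33, adjusted p = 3.2e-04) and 2.28 in wild type mice (SE 0.37, adjusted p = 3.2e-05). The highest F3 level and the highest epithelial sum, 2996 TPM, were both in exposed wild type library 5, and the lowest of that group for both was library 3 (1011 TPM of epithelial markers). In exposed null libraries 1 to 5 the epithelial sum was 889, 665, 706, 795 and 727 TPM, and library 1 was highest for both measures. The lowest libraries of that group differed. Library 2 had the lowest epithelial sum with 5.53 TPM of F3, and library 3 had the lowest F3 (2.44 TPM). The part of epithelial cells in the F3 result was not tested.

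The sequence upstream of F3 held more of the searched motifs than that of the other genes with a promoter window. RefSeq windows on GRCm38.p6, from 250 bases before to 50 after a start site, were found for 6 of the 9 genes (7 windows). Both strands were searched for TGANTCA (AP-1), TGACGTCA (CRE), GGANTTTCC (NF-kB), GGGCGG (SP1), GCGTGGGCG (EGR1) and TATAAA (the TATA box), which 7.81%, 1.79%, 1.25%, 35.7%, 0.612% and 13.6% of all 32851 windows hold, in that order. The 200 bases before the start of F3 (chr3:121723337-121723536, plus strand, 5′ to 3′) are shown because they hold 2 AP-1 matches beginning at -146 and -135, an NF-kB match at -112 and SP1 matches at -89, -58 and -24, all in capitals.
F3: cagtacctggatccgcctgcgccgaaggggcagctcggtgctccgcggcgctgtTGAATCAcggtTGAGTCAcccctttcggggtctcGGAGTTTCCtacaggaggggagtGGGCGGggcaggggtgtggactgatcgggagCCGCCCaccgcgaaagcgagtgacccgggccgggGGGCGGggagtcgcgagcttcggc
A TATA box match on the minus strand lay at 44 bases after the start, outside the stretch shown. A match is a description of letters and not a bound site.

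F7, which encodes factor VII, the ligand of tissue factor, was abundant before exposure and did not pass the test in either genotype. F7 (ENSMUSG00000031443.8, chromosome 8, 13076034 to 13085809) stood at 345, 341, 436, 402 and 413 TPM in exposed null libraries, against 509.7, 514, 543, 559.9 and 575 TPM in naive null libraries. It stood at 425, 486, 498, 503 and 463 TPM in exposed wild type libraries, against 610.02, 586, 613 and 614 TPM in naive wild type libraries. On this scale every exposed library lay below every naive library of its genotype. The counts with TMM scaling gave log2 fold changes of -0.13 in null mice (SE 0.07, adjusted p = 0.13) and 0.02 in wild type mice (SE 0.07, adjusted p = 0.82). On log2(TPM + 1) the differences were -0.49 (adjusted p = 3.3e-06) and -0.35 (adjusted p = 2.9e-04, limma), where the median of all genes was itself at -0.32 in null and -0.34 in wild type mice. TPM of the other genes carry the same shift. The null difference from counts passed without exposed null library 3 (-0.17, adjusted p = 0.046).

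F10, which encodes factor X, was higher in every exposed library than in any naive library of its genotype. F10 (ENSMUSG00000031444.17, chromosome 8, 13087308 to 13106676) stood at 987, 1047, 842, 971 and 1141 TPM in exposed null libraries, against 216, 207, 235, 229.6 and 258 TPM in naive null libraries. It stood at 778, 741, 880.2, 958 and 789.9 TPM in exposed wild type libraries, against 193, 216, 217 and 192 TPM in naive wild type libraries. The lowest exposed library was far above the highest naive library in both genotypes. The log2 fold change was 2.53 in null mice (SE 0.09, adjusted p = 2.0e-15) and 2.44 in wild type mice (SE 0.10, adjusted p = 2.1e-14). F10 TPM per F7 TPM were 2.61 ± 0.45 in exposed null and 1.75 ± 0.15 in exposed wild type libraries (SD, n = 5 each), against 0.424 ± 0.019 in naive null (n = 5) and 0.338 ± 0.028 in naive wild type libraries (n = 4). Factor X transcripts thus outnumbered factor VII transcripts per length in exposed libraries only. Factors VII and X and protein Z are best known as liver products. The liver markers Alb and Ttr were listed at 0 in all 19 libraries, and 5 liver markers summed to at most 0.0978 TPM in any library.

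Thbd, the thrombin-binding anticoagulant receptor, was the single gene of the 9 that fell. Thbd (ENSMUSG00000074743.5, chromosome 2, 148246386 to 148250108) stood at 2.35, 3.52, 3.22, 4.34 and 1.48 TPM in exposed null libraries, against 21.0, 25.2, 30.5, 23.8 and 36.2 TPM in naive null libraries. It stood at 4.78, 6.16, 5.13, 2.56 and 4.06 TPM in exposed wild type libraries, against 19.8, 20.5, 26.4 and 25.1 TPM in naive wild type libraries. The highest exposed library was well below the lowest naive library in each genotype. The log2 fold change was -2.84 in null mice (SE 0.24, adjusted p = 3.3e-09), a 7.15-fold lower level, and -1.97 in wild type mice (SE 0.24, adjusted p = 1.0e-06), a 3.91-fold lower level. Endothelial cells are a main source of thrombomodulin in the body. Of 7 endothelial markers, 3 rose in null mice and 4 in wild type mice on exposure, against 21.4% and 20.1% of all genes tested. Their summed level was 40.0 to 54.4 TPM in exposed null, 39.8 to 52.1 TPM in exposed wild type, 49.0 to 53.1 TPM in naive null and 37.8 to 49.8 TPM in naive wild type libraries. Most of that sum was Vwf, and the endothelial markers Cdh5 and Kdr averaged at most 1.84 and 0.514 TPM in any group. The part of endothelial cells in the Thbd result was not tested.

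Proz, which encodes the vitamin K-dependent protein Z, rose in both genotypes and by different amounts. Proz (ENSMUSG00000031445.6, chromosome 8, 13110914 to 13126026) stood at 30.9, 35.9, 16.9, 22.0 and 18.5 TPM in exposed null libraries, against 3.34, 3.37, 3.79, 4.40 and 3.85 TPM in naive null libraries. It stood at 6.67, 10.5, 12.2, 10.8 and 9.70 TPM in exposed wild type libraries, against 4.57, 5.46, 5.86 and 4.35 TPM in naive wild type libraries. All exposed libraries lay above all naive ones, narrowly so in wild type mice. The log2 fold change was 3.11 in null mice (SE 0.19, adjusted p = 1.2e-11) and 1.36 in wild type mice (SE 0.19, adjusted p = 6.6e-06).

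Among the fibrinolysis genes of the 9, the urokinase receptor had the highest level in every group. Plaur (ENSMUSG00000046223.11, chromosome 7, 24161909 to 24175393) stood at 1539, 1642, 1254, 1282 and 1312 TPM in exposed null libraries, against 551, 495, 527, 521 and 624 TPM in naive null libraries. It stood at 1329.97, 1299.6, 1263, 1253 and 1133 TPM in exposed wild type libraries, against 452, 439, 599.9 and 559 TPM in naive wild type libraries. The groups did not overlap, with log2 fold changes of 1.72 in null (SE 0.09, adjusted p = 2.5e-12) and 1.64 in wild type mice (SE 0.10, adjusted p = 2.8e-11). The 200 bases before its start site (chr7:24462283-24462482, plus strand, GRCm38.p6) are shown for comparison with F3, since they hold an AP-1 match at -69 and SP1 matches from -111, -105 and -100, in capitals, of which the last 2 share a base.
Plaur: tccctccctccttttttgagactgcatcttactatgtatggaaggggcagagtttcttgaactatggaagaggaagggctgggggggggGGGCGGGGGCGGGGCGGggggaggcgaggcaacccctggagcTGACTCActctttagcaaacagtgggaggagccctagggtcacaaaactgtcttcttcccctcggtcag

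Plau (ENSMUSG00000021822.4, chromosome 14, 20886728 to 20893453) stood at 91.1, 95.1, 47.2, 61.2 and 61.4 TPM in exposed null libraries, against 34.0, 35.8, 37.6, 34.6 and 25.4 TPM in naive null libraries. It stood at 93.8, 78.8, 65.5, 62.5 and 51.2 TPM in exposed wild type libraries, against 25.5, 33.4, 33.9 and 33.8 TPM in naive wild type libraries. The spread among exposed mice was wide, and still no exposed library fell within the naive range. The log2 fold change was 1.44 in null (SE 0.18, adjusted p = 1.1e-06) and 1.53 in wild type mice (SE 0.20, adjusted p = 2.0e-06).

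Plat, the other plasminogen activator gene, was close to undetected in naive mice and reached a few TPM within 1 h. Plat (ENSMUSG00000031538.7, chromosome 8, 23247743 to 23272860) stood at 3.74, 3.18, 2.51, 2.51 and 3.72 TPM in exposed null libraries, against 0.211, 0.241, 0.109, 0 and 0 TPM in naive null libraries. It stood at 7.09, 5.0, 4.78, 6.28 and 4.27 TPM in exposed wild type libraries, against 0.270, 0.352, 0.322 and 0.144 TPM in naive wild type libraries. The groups did not overlap, and the naive levels rest on 59 estimated counts over the 5 naive null and 66 over the 4 naive wild type libraries. The log2 fold change was 4.95 in null (SE 0.54, adjusted p = 1.5e-07) and 4.66 in wild type mice (SE 0.58, adjusted p = 1.3e-06). Of the summed TPM of both activators, Plat was 4.37% ± 0.99 in exposed null and 7.32% ± 1.18 in exposed wild type libraries (SD, n = 5 each), so most activator transcripts were those of Plau.

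Serpinb2, which encodes plasminogen activator inhibitor type 2, had the widest change of the 9. Serpinb2 (ENSMUSG00000062345.11, chromosome 1, 107439153 to 107463208) stood at 28.0, 31.7, 16.9, 16.9 and 27.8 TPM in exposed null libraries and at 6.69, 5.22, 6.36, 5.34 and 3.20 TPM in exposed wild type libraries. In naive mice it was listed at 0 in 4 of 5 null libraries, with 0.0494 TPM in the other, and at 0 in 3 of 4 wild type libraries, with 0.0817 TPM in the other. With 4 estimated counts taken as 1 fragment, the depth-scaled ratio was 2748 in null mice (1917 fragments against 1, exact 95% interval 493 to 108595) and 351 in wild type mice (386 fragments against 1, exact 95% interval 62.6 to 13901), covering counting error only. The fitted log2 fold changes, 10.89 in null (SE 0.51, adjusted p = 1.9e-13) and 8.25 in wild type mice (SE 0.58, adjusted p = 2.3e-10), depend on the small count added by the method. Intervals from these SEs are narrower than the counting intervals above, so the SEs understate the uncertainty. Serpinb10 overlaps Serpinb2 on the same strand and had at most 0.0296 TPM in any library. The 200 bases before its first start site (chr1:107511223-107511422, plus strand, GRCm38.p6) are shown because the transcript was almost absent before exposure. They hold an AP-1 match at -94 and a TATA box at -29, in capitals.
Serpinb2: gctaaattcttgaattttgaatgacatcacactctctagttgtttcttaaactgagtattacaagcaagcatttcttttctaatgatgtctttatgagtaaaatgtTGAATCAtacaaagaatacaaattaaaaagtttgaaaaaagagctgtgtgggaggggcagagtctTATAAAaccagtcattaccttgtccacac

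**Figure D2:**
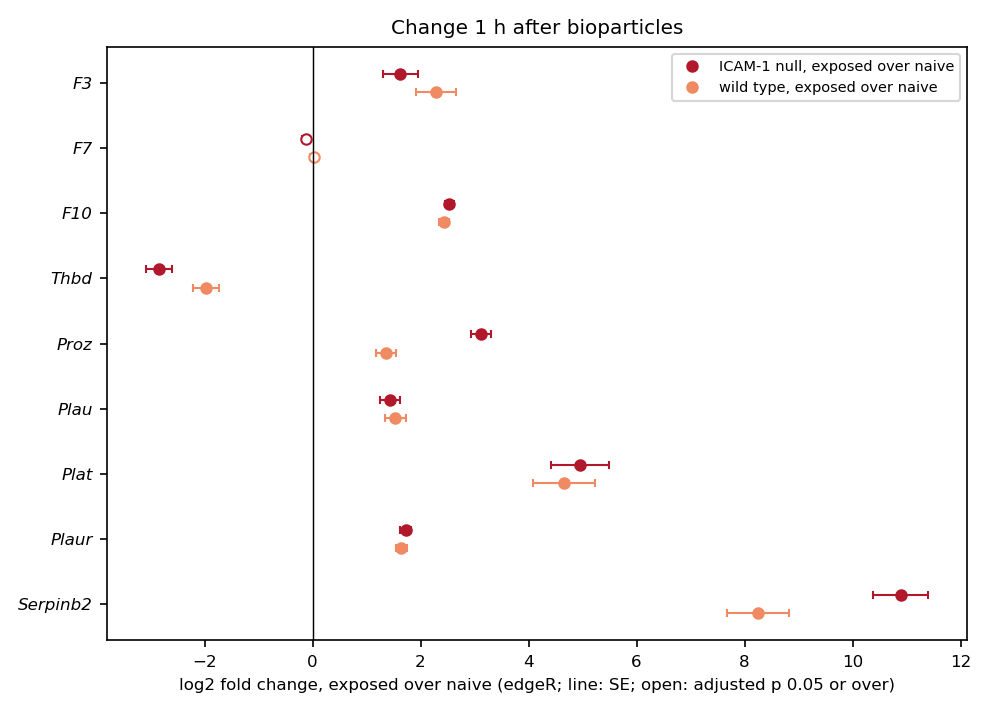
Log2 fold change of each gene, exposed over naive, in null mice (dark red, upper point of each pair) and wild type mice (orange, lower point); lines are SEs and open points had an adjusted p of 0.05 or over. F7 stays near 0 and Thbd lies to the left at -2.84 and -1.97, while Proz is at 3.11 in null and 1.36 in wild type mice.

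In exposed mice the genotypes differed in 4 of the 9 genes: Serpinb2, Proz and F10 were higher and F7 was lower in null than in wild type mice. Over all genes tested, 8.48% passed this comparison, 4.43% higher and 4.04% lower in null mice. Serpinb2 was higher in every exposed null library (16.9 to 31.7 TPM) than in any exposed wild type library (3.20 to 6.69 TPM), 4.63-fold (log2 2.21, SE 0.29, adjusted p = 1.4e-05). Proz likewise did not overlap (16.9 to 35.9 TPM against 6.67 to 12.2 TPM), 2.59-fold higher (log2 1.37, SE 0.17, adjusted p = 1.2e-05). F10 was higher by 0.29 (SE 0.08, adjusted p = 0.034) and F7 was lower at -0.26 (SE 0.07, adjusted p = 0.018), and both had overlapping libraries. The F10 call was lost in 11 of 30 alternative settings (adjusted p of up to 0.12), among them without exposed wild type library 1, 2 or 3 or exposed null library 2, 4 or 5. The F7 call was lost in 4 of 30 (adjusted p of up to 0.29), among them without exposed null library 1 or 2. Without exposed wild type libraries 2, 4 and 5, which had the highest epithelial sums, the F10 and F7 estimates were 0.31 (adjusted p = 0.12) and -0.20 (adjusted p = 0.29). Only 2 libraries were then left in that group, and the genes called among all tested went down to 813, against 1738 with all libraries. Serpinb2 and Proz still passed. The epithelial, red cell and lymphocyte sums given above also separated these groups, and their part in the genotype differences was not tested.

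The other 5 genes did not pass this comparison. Plat was lower in every exposed null library (2.51 to 3.74 TPM) than in any exposed wild type library (4.27 to 7.09 TPM), but its difference from counts did not pass (log2 -0.75, SE 0.43, adjusted p = 0.36). It passed when only these groups were fitted (-0.76, adjusted p = 0.024) and with limma on log2(TPM + 1) (-0.65, adjusted p = 0.0046). Thbd had a log2 fold change of -0.56 (95% interval -1.04 to -0.08, adjusted p = 0.16), F3 of -0.47 (interval -1.12 to 0.19), Plaur of 0.20 (interval 0.01 to 0.38, adjusted p = 0.23) and Plau of 0.05 (interval -0.32 to 0.42). Of these, Plau had the estimate nearest 0, with libraries of 47.2 to 95.1 TPM in null and 51.2 to 93.8 TPM in wild type mice.

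In naive mice no gene of the 9 passed the test between genotypes with edgeR or with DESeq2, against 6.86% of all genes tested. F10 alone had an unadjusted p under 0.05 (0.20, 95% interval 0.01 to 0.38, adjusted p = 0.26). Proz was the other way round from exposed mice, at -0.38 (interval -0.77 to 0.01, adjusted p = 0.31). F7 did not overlap on the TPM scale (509.7 to 575 TPM in null and 586 to 614 TPM in wild type libraries), with a log2 fold change from counts of -0.10 (interval -0.25 to 0.04). The intervals for the low genes were wide, from -2.29 to 0.21 for Plat and from -3.07 to 2.21 for Serpinb2.

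The response to bioparticles differed between genotypes for Proz alone among the 9 genes, against 0.332% of all genes tested. The Proz response was larger in null mice by 1.75 on the log2 scale (SE 0.25, 95% interval 1.22 to 2.28, adjusted p = 0.0015). Without the shallow naive wild type libraries 1, 2 and 3 the estimate was 1.70 (adjusted p = 0.12). That group then held 1 library, assumed to vary like the other groups, and 10 of all genes passed, against 68 with all libraries. The difference for Serpinb2 was 2.64 but had an interval of -0.55 to 5.83 (adjusted p = 0.60). Its naive levels rest on 5 estimated counts in null and 4 in wild type mice. With limma the Serpinb2 difference passed on log2(TPM + 1) (1.99, adjusted p = 3.4e-04) and on log2(TPM + 0.1) (2.25, adjusted p = 0.011). Naive levels were 0 or near 0 in both genotypes, so the added constant sets them nearly equal. The limma values therefore mostly restate the difference between exposed null and exposed wild type mice. For Thbd the difference of responses was -0.87 (interval -1.56 to -0.18, adjusted p = 0.35), which did not pass. For F10, Plaur and Plau the estimates were 0.10, 0.08 and -0.09, with intervals of -0.16 to 0.35, -0.19 to 0.36 and -0.63 to 0.45.

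F7, F10 and Proz lie side by side on chromosome 8 in the same orientation, with 1498 bases between F7 and F10 and 4237 bases between F10 and Proz, yet they moved by different amounts. F7 did not pass in either exposure comparison, F10 rose by 2.53 and 2.44 in null and wild type mice, and Proz rose by 3.11 and 1.36. Proz TPM per 100 F10 TPM were 2.49 ± 0.76 in exposed null and 1.20 ± 0.23 in exposed wild type libraries (SD, n = 5 each), against 1.64 ± 0.16 in naive null (n = 5) and 2.46 ± 0.19 in naive wild type libraries (n = 4). The ratio was thus lower in every exposed than in every naive wild type library (0.857 to 1.42 against 2.26 to 2.70). Upstream of F7, Mcf2l did not pass (-0.22 in null and -0.21 in wild type mice). Downstream, Pcid2 rose by 0.47 and 0.32 in null and wild type mice. Cul4a, a ubiquitin ligase scaffold, rose by 0.51 in null mice (adjusted p = 3.9e-05) and had -0.08 in wild type mice (adjusted p = 0.55), and its responses differed by 0.59 (adjusted p = 0.041).

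**Figure D3:**
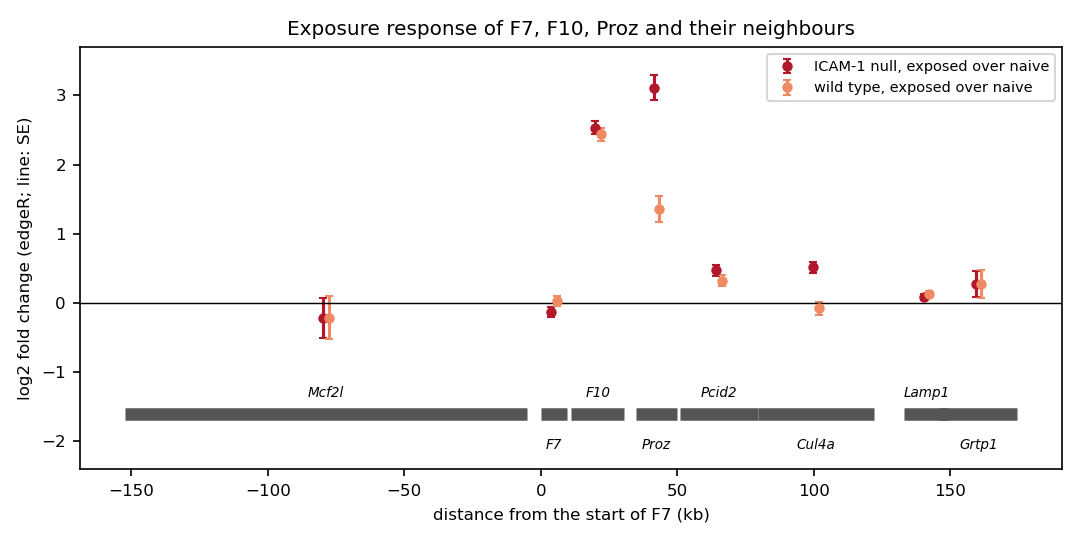
Log2 fold change, exposed over naive, of the genes around F7, F10 and Proz by distance from the start of F7 (kb); dark red points are null and orange points wild type mice, lines are SEs and grey bars are the gene spans. F10 and Proz stand well above their neighbours, and the points of the genotypes are apart for Proz and Cul4a.

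The stretches before the start sites of these 3 neighbours are shown because none held any of the 6 motifs, in the RefSeq windows of GRCm38.p6 at chr8:13025834-13026033 for F7, chr8:13037108-13037307 for F10 and chr8:13060708-13060907 for Proz, all on the plus strand and 5′ to 3′. With no match there are no capitals, and this says only that those letters are not in the windows.
F7: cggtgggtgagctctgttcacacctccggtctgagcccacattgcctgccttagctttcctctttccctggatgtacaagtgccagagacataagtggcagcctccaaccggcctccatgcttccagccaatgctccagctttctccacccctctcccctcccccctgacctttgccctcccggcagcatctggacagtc
F10: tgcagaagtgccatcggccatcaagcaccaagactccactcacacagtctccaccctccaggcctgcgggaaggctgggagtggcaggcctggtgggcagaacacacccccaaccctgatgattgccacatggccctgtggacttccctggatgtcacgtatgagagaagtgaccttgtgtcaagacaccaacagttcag
Proz: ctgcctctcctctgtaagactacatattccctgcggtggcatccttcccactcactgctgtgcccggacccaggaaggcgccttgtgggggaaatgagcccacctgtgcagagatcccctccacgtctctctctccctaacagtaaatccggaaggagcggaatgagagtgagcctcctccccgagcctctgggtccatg

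In the 3′ untranslated regions, AU-rich pentamers and the nonamer TTATTTATT, known elsewhere as elements of unstable transcripts, were unevenly spread over the 9 genes. This search was chosen after the values were seen and used the GENCODE M21 annotation of GRCm38. ATTTA occurred 7 times in F3 (809 bases) and Thbd (1747 bases), 6 times in Serpinb2 (657 bases), 3 times in Proz (2096 bases), 2 times each in Plau, Plat and Plaur, and not in F7 (493 bases) or F10 (18 bases). Among 21039 genes, 61.7% held ATTTA and 6.97% held the nonamer, with a median length of 800 bases. The nonamer was in Serpinb2, which rose most, and in Thbd, which fell, each shown as 27 bases with the nonamer in capitals (chromosome 1 and chromosome 2, 5′ to 3′ on the transcript).
Serpinb2: tttacagtgTTATTTATTgtttatata
Thbd: tgtacatatTTATTTATTggagtttcg

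Of 40 further genes of coagulation, anticoagulation, fibrinolysis, thrombin receptors and the vitamin K cycle, 25 passed the filter on low counts. In each exposure comparison 6 rose, 4 fell and 15 did not pass, so that 40.0% passed, against 44.8% of all genes tested in null and 40.2% in wild type mice. Their median log2 fold change was 0.38 in null and 0.46 in wild type mice. Without naive wild type libraries 1, 2 and 3, which leaves 1 library in that group with its spread taken from the other groups, 3 of these genes passed in wild type mice. Over all genes tested, 4253 then passed, against 8245 with all libraries. The 15 genes that did not pass the filter included those for prothrombin, plasminogen and the fibrinogen chains (F2, Plg, Fga, Fgb, Fgg).

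Procr, the endothelial protein C receptor, rose by 0.91 in null and 1.10 in wild type mice, and was higher in null than in wild type mice both exposed (0.95, adjusted p = 2.6e-04) and naive (1.13, adjusted p = 9.5e-05). Anxa2 and S100a10, whose products form a surface complex that binds plasminogen, rose by 0.56 and 0.45 in null and by 0.46 and 0.22 in wild type mice, while mean S100a10 TPM in wild type mice went the other way (738 in exposed and 824 in naive mice). Klkb1 (plasma prekallikrein) rose by 1.27 and 0.75, at 1 to 3 TPM. Pros1, which encodes protein S, a cofactor of activated protein C, fell by 0.55 in null and 0.38 in wild type mice and was lower in null mice both exposed (-0.55, adjusted p = 3.1e-04) and naive (-0.38, adjusted p = 0.016). Ggcx, the carboxylase that the vitamin K-dependent factors need, fell by 0.70 and 0.52, and Lrp1, a receptor that clears protease and inhibitor complexes, fell by 0.32 and 0.41. Plgrkt, a plasminogen receptor, fell by 0.19 and 0.21. Vwf rose by 0.30 in wild type mice (adjusted p = 0.021) and had 0.23 in null mice (adjusted p = 0.055), and this difference was not past the test (-0.07, adjusted p = 0.92). Its mean TPM turned the other way, at 39.8 in exposed null and 43.4 in naive null, and 32.7 in exposed wild type and 33.8 in naive wild type libraries. F2r, which encodes a thrombin receptor, did not pass, at 0.38 in null (adjusted p = 0.10) and 0.47 in wild type mice (adjusted p = 0.066).

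**Figure D4:**
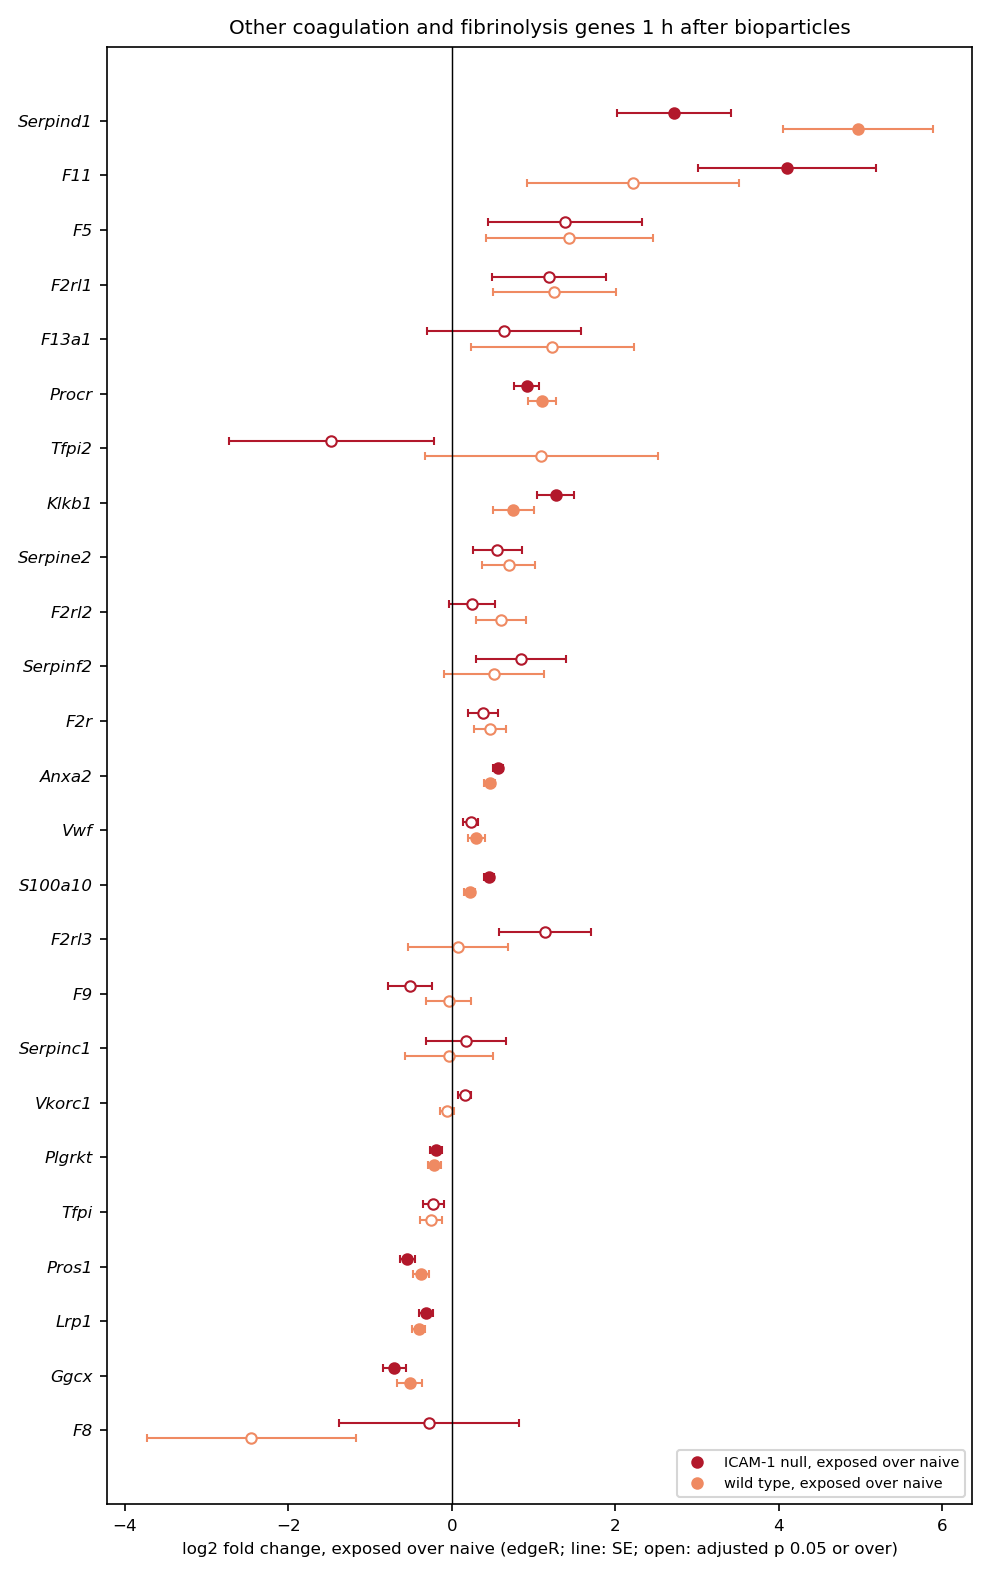
Log2 fold change, exposed over naive, of the 25 further coagulation and fibrinolysis genes that passed the filter, in null (dark red) and wild type mice (orange); lines are SEs and open points had an adjusted p of 0.05 or over. Procr stands at 0.91 and 1.10 with short lines, while genes of low count such as Serpind1 and F11 have long ones.

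By level, Plaur, F10 and F7 were the highest of the 9 in every group, and their order changed. In exposed null libraries Plaur (1406 ± 174 TPM) was above F10 (998 ± 110 TPM), and F10 above F7 (387 ± 42.4 TPM), with no overlap. In naive wild type libraries F7 (606 ± 13.1 TPM) and Plaur (513 ± 79.4 TPM) overlapped, and F10 (205 ± 13.8 TPM) was below both. At the low end, F3, Plat and Thbd overlapped in exposed null libraries (means of 4.55, 3.13 and 2.98 TPM), while in naive wild type libraries Thbd (22.9 ± 3.29 TPM) was above F3 (1.70 ± 0.27 TPM) and F3 above Plat (0.272 ± 0.092 TPM). Proz and Serpinb2 overlapped in exposed null libraries (24.8 ± 8.21 and 24.3 ± 6.90 TPM) and, by a single library each (6.67 TPM of Proz and 6.69 TPM of Serpinb2), in exposed wild type libraries (9.99 ± 2.07 and 5.36 ± 1.37 TPM).

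For each of the 9 genes, the genes with the most similar pattern were found by the root mean square difference of log2 CPM, centred per gene, over the 19 libraries and 11943 candidates. F7 was closest to Nme1 (0.086) and Mrpl9 (0.094), F10 to Sod2 (0.12) and Pstpip2 (0.15), and Plaur to Brd2 (0.13) and Usp16 (0.14). Plau was closest to Spag9 (0.17) and Suco (0.19), Thbd to Klhl42 (0.26) and Ucp3 (0.27), and Proz to Cdc42bpg (0.30) and Tspoap1 (0.34). F3 was closest to Cbr2 (0.41) and Il20rb (0.43). Serpinb2 was closest to Il6 (0.75) and Ptgs2 (0.99), and Plat to Htra4 (0.83) and Gpr84 (0.90). The measure is not scaled for the size of a gene's change. Its values therefore rank matches within each of the 9 genes and do not compare closeness between them.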

How the data were processed

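Per the labels' protocols, RNA from frozen lavage pellets was poly(A)-selected and read from both ends (150 bases each, 20 M reads planned). STAR, the build GRCm39 and StringTie 2 are named in the submitters' processing notes; the sources used here do not give options or the strand setting. The deposited tables hold estimated counts, as whole numbers not scaled for depth, and TPM, scaled by the authors per library. From the frequency of low values (16472 values of 1 and 16121 of 4), 1 fragment was assumed to be worth 4 counts. Values of 3 (13059) and 5 (8204) were fewer than those of 4, but the most frequent was 1. The frequencies therefore do not settle this unit, on which the Serpinb2 ratios, their intervals and the fragment numbers rest.

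Estimated counts of all 19 libraries were tested in a single model with edgeR 4.0.16 (R 4.3.3): quasi-likelihood F test, two-sided, TMM scaling and filterByExpr (minimum count 10, total 15), leaving 20501 genes, over which p-values were adjusted by Benjamini-Hochberg. Each SE was derived as the absolute log2 fold change divided by the square root of the F statistic. The 95% intervals use that SE and the degrees of freedom of the fit. Exposed mice were compared with naive mice of their genotype, null with wild type mice of the same condition, and the responses with each other. Alternatives used DESeq2 1.42.0, limma 3.58.1 on log2(TPM + 1) and log2(TPM + 0.1), other scaling, no filter, counts divided by 4, fewer groups or libraries and a replicate block. The fit was tested on simulated counts.

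No libraries of a group were identical (lowest chi-square per gene 3.70). The labels do not say that replicate numbers mark a shared litter or day, and p-values reflect only the spread between the samples deposited. The 9 genes and all lists were chosen with earlier results of these data known. Named further genes passed an exposure comparison at 1 TPM or more in the higher group, up to 12 by adjusted p; the genes most like each of the 9, Cul4a and its neighbours, F2r, Cdh5, Kdr, Alb and Ttr are named beside them. A gene of the list of further genes is not reported here and was left out of the counts. Promoter sequence is from RefSeq.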

Additional observations from a re-analysis of the deposited data

Results flagged for a closer look

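The response of Proz differed between genotypes, by 1.75 on the log2 scale (adjusted p = 0.0015), larger in null than in wild type mice. Of 36 sets of TPM values (9 genes in 4 groups), 4 held a library far from the others of its group. Chance alone gives about 1 in 20 where values are normally spread. The Serpinb2 sets among the 4 hold a single library above 0, which meets the rule whatever its level, so that rate does not apply to them. F7 was lowest in naive wild type library 2 (586 TPM), with the other 3 libraries between 610.02 and 614 TPM. Plau was lowest in naive wild type library 1 (25.5 TPM), the shallowest library, against 33.4 to 33.9 TPM in the others. Serpinb2 had 0.0494 TPM in naive null library 1 and 0.0817 TPM in naive wild type library 3, with all other naive libraries listed at 0. These are 5 and 4 estimated counts, about 1 fragment in each under the assumed unit.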

How the results depend on the processing

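Of 1340 values of the 45 comparisons of single genes under alternative settings, 1294 kept their direction and side of the threshold, 16 lost the call, 7 gained one and 21 uncalled values changed sign. Calls turned round in 2, both of F7 in wild type mice, uncalled at 0.02 from counts and lower on log2(TPM + 1) and log2(TPM + 0.1) (-0.35 on both, limma), scales on which the median of all genes also shifts. The number of genes whose response differed by genotype, 1 of 9, was 2 with limma at both pseudocounts (Proz and Serpinb2). Over all genes, 108 passed on log2(TPM + 1) and 74 on log2(TPM + 0.1), against 68. The Serpinb2 call with limma mostly restates its difference between exposed genotypes, since its naive levels were near 0. Without naive wild type libraries 1, 2 and 3 the Proz difference was 1.70, against 1.75. Between genotypes after exposure, 4 of 9 became 2 without exposed wild type libraries 2, 4 and 5, where F10 and F7 kept estimates of 0.31 and -0.20 (0.29 and -0.26 with all libraries) and 813 genes in all passed, against 1738. The count ranged from 2 to 4 when single libraries were left out. Of the 25 further genes, 10 passed in wild type mice and 3 did without naive wild type libraries 1, 2 and 3 (over all genes, 4253 against 8245). These 2 sets of libraries were left out after the data were seen, and leave 1 naive or 2 exposed wild type libraries, so part of each drop comes from fewer samples.

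Same-numbered samples did not deviate together over all genes: none of 27 such pairs correlated above 0.1 (-0.048 to 0.073). Of 19 samples, 4 correlated best with their own number. A shared litter or day that moves few genes, or moves them weakly, would not show in these correlations. With a replicate block, 8 genes passed in null and 8 in wild type mice on exposure, 4 between genotypes after exposure, 0 in naive mice and 1 for the difference of responses, as without it, and 9 of the 25 further genes passed in each exposure comparison. Over all genes, 9037 then passed in null and 7808 in wild type mice on exposure. Between genotypes 1649 passed after exposure and 1365 in naive mice, and 52 passed for the difference of responses.

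Depth limits the naive levels of Serpinb2 and Plat, which rest on 4 to 66 estimated counts per group. The fold of Serpinb2 and its difference between genotypes are therefore poorly bounded.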
